A study of Arabidopsis thaliana with 22 samples.

Results

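Chlorophyll is made by a dark-grown seedling only as far as protochlorophyllide, and the genes of this branch were examined here for acetylation of histone H3 in the dark. The 10 genes, of 27444 protein-coding genes on chromosomes 1 to 5, were *PORA* (AT5G54190), *PORB* (AT4G27440), *PORC* (AT1G03630), *HEMA1* (AT1G58290), *CHLH* (AT5G13630, also named *GUN5*), *GUN4* (AT3G59400), *FLU* (AT3G14110), *CHLI1* (AT4G18480), *CHLD* (AT1G08520) and *CAO* (AT1G44446). They were chosen by name from the pathway, and every peak that overlapped a gene or the 2 kb on either side of it was collected, with the peaks whose summit (the base of highest coverage) lay inside the gene counted apart. The samples were 3-day-old etiolated whole seedlings of wild-type Col-0 and of the *ein2-5* mutant, which carries a loss-of-function allele of *EIN2*, a gene needed for the ethylene response. Seedlings of both genotypes were exposed for 4 h to hydrocarbon-free air or to the same air with 10 p.p.m. ethylene. Chromatin immunoprecipitation and sequencing (ChIP-seq) gave 18 libraries for H3K9Ac (Col-0 only), H3K14Ac and H3K23Ac (both genotypes), and 4 libraries with IgG, an antibody without a chromatin target, as background. Each combination of genotype, mark and treatment was sequenced in 2 libraries, except Col-0 H3K14Ac with 1 library per treatment, and the authors pooled the libraries of a combination before calling peaks. The data are therefore 10 peak lists, 1 for each combination, with no replicates, so that no test between lists was possible and all comparisons below are descriptions. No light-grown seedlings were among the samples used.

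The tetrapyrrole pathway starts in the plastid from glutamate. Glutamyl-tRNA reductase makes the precursor of 5-aminolevulinic acid (ALA), magnesium chelatase places the metal into protoporphyrin IX, and protochlorophyllide oxidoreductase (POR) completes the chlorophyll ring in a step that requires light in flowering plants. Free intermediates are harmful once light arrives, so etiolated seedlings restrain the early steps and store protochlorophyllide bound to POR. Acetylation of the H3 tail is usually found just downstream of the start of genes that are transcribed, and transcript levels were not measured in the data used here.

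Some stretches of DNA show where the acetylated sites lay and are printed 5′ to 3′ on the strand of the gene, from the TAIR10.1 assembly by RefSeq, whose nuclear chromosomes carry the TAIR10 coordinates of the peak lists. The first belongs to *CHLD*, is shared by the peaks of all 10 lists near the gene start, and lies at chr1:2696580-2696872 on the plus strand. Its capitals span the 10 summits, which fell within 31 bp of each other.
CHLD: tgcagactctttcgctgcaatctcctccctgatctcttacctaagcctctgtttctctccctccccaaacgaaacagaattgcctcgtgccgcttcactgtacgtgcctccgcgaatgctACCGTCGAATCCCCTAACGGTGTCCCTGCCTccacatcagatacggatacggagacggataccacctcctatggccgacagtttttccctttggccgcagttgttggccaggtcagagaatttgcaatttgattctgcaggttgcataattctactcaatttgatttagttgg
The second is the part of *HEMA1* common to its 9 peaks near the start, at chr1:21625847-21626019 on the minus strand, where the summits were spread over 132 bp, of which the capitals mark the part inside the shared stretch.
HEMA1: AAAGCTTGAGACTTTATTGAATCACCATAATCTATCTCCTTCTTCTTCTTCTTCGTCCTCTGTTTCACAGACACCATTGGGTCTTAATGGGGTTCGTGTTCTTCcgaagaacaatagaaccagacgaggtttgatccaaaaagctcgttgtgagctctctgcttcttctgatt
The third is the part of *GUN4* common to its 9 peaks, at chr3:21949381-21949561 on the minus strand, with 74 bp in capitals that span the 9 summits.
GUN4: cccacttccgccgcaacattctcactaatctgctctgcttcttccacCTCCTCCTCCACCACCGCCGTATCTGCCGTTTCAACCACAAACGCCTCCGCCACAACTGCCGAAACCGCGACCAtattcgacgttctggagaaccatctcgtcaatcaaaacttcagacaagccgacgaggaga
For contrast, the only peak with a summit inside *PORA* in any list was an H3K9Ac peak with ethylene at chr5:21992246-21992544 on the minus strand. The single capital is its summit, in the coding sequence of exon 3.
PORA: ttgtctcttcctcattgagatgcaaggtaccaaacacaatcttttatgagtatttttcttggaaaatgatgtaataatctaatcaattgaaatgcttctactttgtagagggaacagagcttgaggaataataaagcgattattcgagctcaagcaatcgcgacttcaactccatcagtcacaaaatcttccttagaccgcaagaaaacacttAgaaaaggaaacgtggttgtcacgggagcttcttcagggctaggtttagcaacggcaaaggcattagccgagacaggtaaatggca
The 250 bases upstream of *PORA* (chr5:21992815-21993064, minus strand), *PORB* (chr4:13725296-13725545, plus strand) and *CAO* (chr1:16851272-16851521, minus strand) are shown because these genes differed in their listed peaks. Capitals mark matches to 3 short motifs described further on.
PORA upstream: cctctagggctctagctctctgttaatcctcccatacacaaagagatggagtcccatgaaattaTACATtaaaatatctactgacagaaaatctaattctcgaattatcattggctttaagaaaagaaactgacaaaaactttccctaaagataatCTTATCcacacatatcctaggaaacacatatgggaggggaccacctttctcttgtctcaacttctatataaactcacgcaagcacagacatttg
PORB upstream: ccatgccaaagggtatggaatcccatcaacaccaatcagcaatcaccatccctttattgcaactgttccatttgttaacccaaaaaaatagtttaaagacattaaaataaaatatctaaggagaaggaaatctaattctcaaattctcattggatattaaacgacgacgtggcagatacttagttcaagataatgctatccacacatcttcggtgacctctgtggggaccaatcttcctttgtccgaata
CAO upstream: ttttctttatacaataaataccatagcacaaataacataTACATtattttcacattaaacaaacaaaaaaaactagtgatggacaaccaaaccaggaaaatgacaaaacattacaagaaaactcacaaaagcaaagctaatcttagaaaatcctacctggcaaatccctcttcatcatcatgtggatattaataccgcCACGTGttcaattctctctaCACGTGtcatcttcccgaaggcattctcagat

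The lists held 3011 to 18003 peaks and rested on 16981322 to 37674460 ChIP tags. The caller scaled the ChIP tags down to the IgG control, and the controls differed more, with 2438541 tags behind the 3 Col-0 air lists, 10479732 behind Col-0 with ethylene, 13683768 behind *ein2-5* in air and 4333059 behind *ein2-5* with ethylene. The smallest fold enrichment that could pass the authors' P threshold of 0.01 against the genome-wide background was 2.1, 1.58, 1.5 and 1.83 in the same order. Which IgG library served as control was inferred from genotype and treatment alone, and this is uncertain for Col-0 air, whose control held the fewest tags. Fold enrichment and pileup were therefore not compared between lists, and each peak is placed by the percentile of its −log10 P among the peaks of its own list. A percentile also depends on how many peaks a list holds and describes the peak within that list alone. Lists were also reduced to a common control depth, by scaling pileup and background at each summit to 2438541 control tags and keeping peaks that still passed P of 0.01, and the Col-0 air lists are as called there. Peaks of the Col-0 air lists therefore count as kept without having been filtered. A gene without a listed peak has no value, since the lists hold only peaks past the threshold. Of 4 genes that every cell uses, *UBQ10*, *ACT2* and *EF1A* had a summit in 7 lists and *GAPC1* in 8. Of 4 genes of flowers and seeds, *AP3*, *CRA1* and *AT2S3* had none and *AG* had 1, in *ein2-5* H3K14Ac with air.

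All 10 genes had an H3K9Ac peak with its summit inside the gene in ethylene-treated Col-0, the longest list, and in every other list some did not. That count was 7 at the common control depth (48.6% of all genes). It was 6 either with a fold enrichment of at least 2 or in lists of equal length, where the share of all genes is not given. In the wide count, peaks within 2 kb were found at 8 of the 10 genes for Col-0 H3K9Ac in air (57.9% of all protein-coding genes), at 10 with ethylene (77.3%), at 5 for Col-0 H3K14Ac in air (20.9%), at 9 with ethylene (67.3%), at 6 for Col-0 H3K23Ac in air (31.5%) and at 9 with ethylene (62.5%). In *ein2-5* they were found at 6 genes for H3K14Ac in air (51.2%), at 5 with ethylene (46.8%), at 7 for H3K23Ac in air (60.9%) and at 7 with ethylene (57.8%). A good part of these peaks belonged to neighbours. Of the 105 peaks collected, 55 had the summit inside one of the 10 genes, and all 50 others had it inside another annotated gene.

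With the summit inside the gene, H3K9Ac was listed at 7 genes in air (36.2% of all genes) and at 10 with ethylene (56.1%). H3K14Ac in Col-0 was listed at 2 genes in air (10.6%) and at 5 with ethylene (43.8%), and H3K23Ac at 4 in air (17.0%) and at 5 with ethylene (39.3%). In *ein2-5*, H3K14Ac was listed at 4 genes in air (29.6%) and 3 with ethylene (27%), and H3K23Ac at 4 in air (37.2%) and 5 with ethylene (35.4%). The counts in *ein2-5* differed from the share of all genes by less than 2 of the 10 genes. Both H3K9Ac counts and the Col-0 H3K23Ac count in air lay further above it. For H3K9Ac this was not particular to the 10 genes, since 29 other tetrapyrrole genes had a summit at 19 in air and 27 with ethylene. With 10 genes, a difference of 1 gene moves a share by 10 points. In whole seedlings, fewer cells that carry a mark and less of the mark per cell cannot be told apart.

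**Figure D1:**
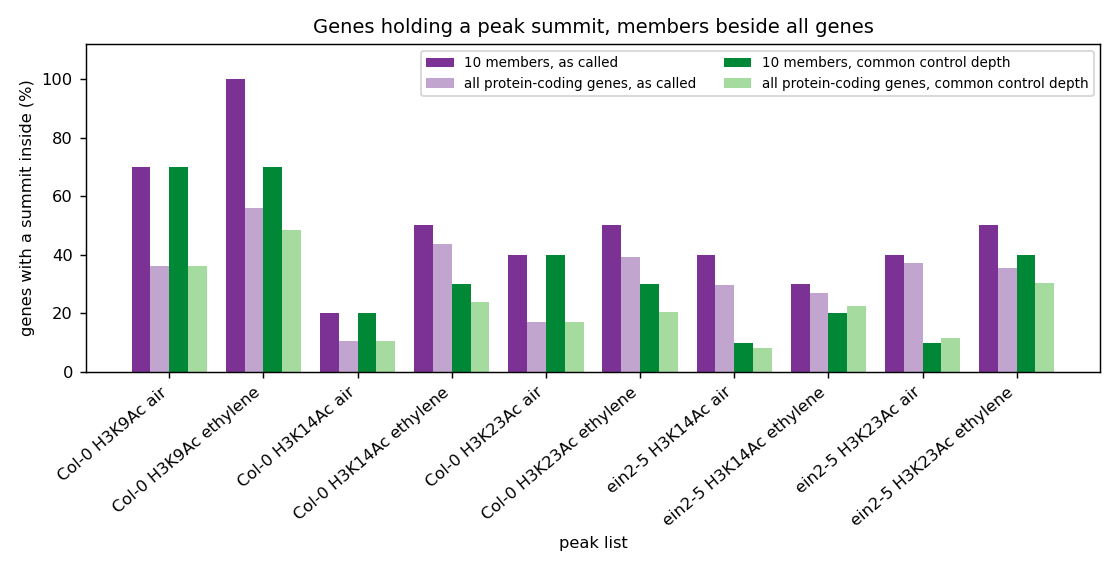
Share of genes (%) with a peak summit inside, for each of the 10 lists, with bars for the 10 chlorophyll synthesis genes and for all 27444 protein-coding genes, as called and at the common control depth. The H3K9Ac bars of the 10 genes stand above those of all genes. At the common depth the *ein2-5* air lists drop to 1 gene each, beside 7.99% of all genes for H3K14Ac and 11.6% for H3K23Ac.

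**Figure D2:**
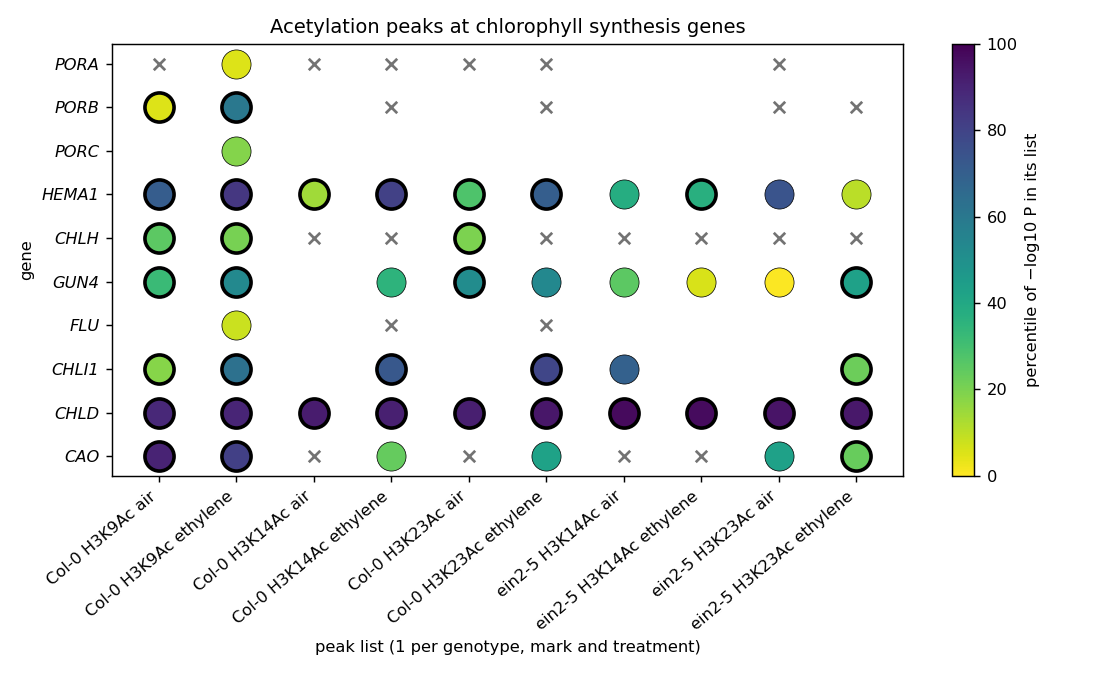
Peaks of each of the 10 genes (rows) in each list (columns). Circles are genes with a summit inside, coloured by the percentile of the −log10 P of the strongest such peak in its list, with a thick edge where that peak was kept at the common control depth. Peaks of the Col-0 air lists were not filtered at that depth. Crosses are genes with a peak within 2 kb but no summit inside. *CHLD* and *HEMA1* have a circle in all 10 lists, and *PORA*, *PORC* and *FLU* in 1.

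The genes at the entrance of the pathway stood apart from each other. *HEMA1* encodes glutamyl-tRNA reductase, the enzyme of the first committed step, and had a summit inside in all 10 lists. Its peak near the start had its summit 355 to 486 bp from the gene start, in the coding sequence of exon 1, in 9 lists. These peaks stood at percentile 70.8 of the list in H3K9Ac air (fold enrichment 2.98) and at 84.2 in H3K9Ac ethylene (3.34). For H3K14Ac in Col-0 the percentile was 14.1 in air (2.32, with a q above 0.05) and 80.8 with ethylene (2.36), and for H3K23Ac it was 27.9 in air (2.40, q above 0.05) and 70.6 with ethylene (2.21). By rank these peaks stood at 2570 of 3011 in air and 2938 of 15317 with ethylene for H3K14Ac. For H3K23Ac they stood at 3578 of 5012 and 3801 of 12950. The air and ethylene lists thus differed in length as well, and the part of list length in the percentiles was not tested. In *ein2-5* the peak stood at percentile 4.72 for H3K14Ac in air (1.53), 74.0 for H3K23Ac in air (2.07) and 10.2 for H3K23Ac with ethylene (1.65). H3K14Ac with ethylene in the mutant lacked the peak near the start and had summits 776 and 1381 bp into the gene, at percentiles 9.15 and 36.9. Further peaks in exon 3 were listed for H3K14Ac in *ein2-5* air (1540 bp, percentile 38.2) and in Col-0 ethylene (1378 bp, percentile 6.39). At the common control depth *HEMA1* kept a summit in 7 lists and lost it in *ein2-5* H3K14Ac air and in both *ein2-5* H3K23Ac lists.

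*FLU* encodes a plastid membrane protein that holds back glutamyl-tRNA reductase in the dark. It had 1 peak with the summit inside, for H3K9Ac with ethylene at chr3:4677348-4677577, with its summit in intron 1, 215 bp from the start. That peak stood at percentile 8.12 (fold enrichment 1.69), and the common depth removed it. The 3 other peaks near *FLU*, 1 each in H3K9Ac, H3K14Ac and H3K23Ac of ethylene-treated Col-0, had their summits 294 to 328 bp upstream, inside the neighbour AT3G14120, at percentiles 26.4 to 46.3. The pair of reductase and inhibitor thus had summits in 10 and 1 lists.

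The subunits of magnesium chelatase, which work in 1 enzyme, also differed, with summits in 10, 6 and 3 lists. *CHLD* encodes the D subunit, which forms the motor of the enzyme together with the I subunit, and it was, with *HEMA1*, one of the genes present in every list. Its peaks had summits between 319 and 349 bp from the start, in the coding part of exon 1, in all 10 lists. They stood at percentile 88.9 in H3K9Ac air (fold enrichment 3.39), 89.8 in H3K9Ac ethylene (3.50), 92.2 in Col-0 H3K14Ac air (3.28), 91.2 in Col-0 H3K14Ac ethylene (2.58), 91.5 in Col-0 H3K23Ac air (3.19) and 94.0 in Col-0 H3K23Ac ethylene (2.61). In *ein2-5* they stood at 97.4 for H3K14Ac air (2.69), 97.2 for H3K14Ac ethylene (2.94), 94.9 for H3K23Ac air (2.66) and 93.6 for H3K23Ac ethylene (2.90). The *CHLD* peak was thus among the stronger peaks of each list, for every mark, treatment and genotype, and all 10 peaks were kept at the common depth. A further H3K14Ac peak in Col-0 with ethylene lay in exon 9, 2947 bp from the start, at percentile 6.56, and was not kept. 4 peaks beyond the end of the gene had summits inside AT1G08530.

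*CHLI1* encodes the main I subunit, an ATPase, and had a summit inside in 6 lists, 205 to 430 bp from the start. H3K9Ac was listed at percentile 18.3 in air (fold enrichment 2.26) and at 63.2 with ethylene (3.22). H3K14Ac and H3K23Ac in Col-0 were listed only with ethylene, at percentile 72.9 (2.37) and 79.2 (2.48). In *ein2-5* H3K14Ac was listed only in air, at percentile 69.3 (2.1), and H3K23Ac only with ethylene, at percentile 22.3 (1.92). *CHLI1* was thus listed in 1 treatment alone in 4 of the 5 pairs of ethylene and air lists, and it had no peak of a neighbour within 2 kb in any list. The *ein2-5* H3K14Ac air peak, called against the deepest control, was the only one of the 6 not kept at the common depth.

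*CHLH* encodes the large subunit that binds the porphyrin, and had a summit inside in 3 lists, 543 to 617 bp from the start in the coding sequence of exon 1. They were H3K9Ac in air (percentile 25.1, fold enrichment 2.35), H3K9Ac with ethylene (20.5, 1.93) and Col-0 H3K23Ac in air (19.6, 2.20). The last had a −log10 q of 0.808, which is a q above 0.05. All 3 were kept at the common depth, where only the H3K9Ac ethylene peak was filtered and those of the Col-0 air lists could not be lost. *CHLH* also had a peak 1105 to 1335 bp upstream of its start in all 10 lists, at percentiles 19.2 to 89.6, but these summits lay inside the neighbour AT5G13640, so that the count within 2 kb put *CHLH* in every list.

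*GUN4* encodes a porphyrin-binding protein that stimulates magnesium chelatase, and had a summit inside in 9 lists, all except Col-0 H3K14Ac in air, at 282 to 355 bp from the start. H3K9Ac stood at percentile 32.1 in air (fold enrichment 2.29) and 53.0 with ethylene (2.52), Col-0 H3K14Ac with ethylene at 35.3 (1.83), and Col-0 H3K23Ac at 51.8 in air (2.41) and 53.4 with ethylene (1.92). In *ein2-5*, H3K14Ac stood at 25.2 in air (1.67) and 6.08 with ethylene (1.81), and H3K23Ac at 0.757 in air (1.43) and 43.1 with ethylene (2.16). These were peaks of the lower and middle part of their lists, and 4 of the 9 were kept at the common depth. *GUN4* has a single exon and all its summits also fell inside the annotated span of AT3G59410 (*GCN2*) on the other strand, so that acetylation of the 2 genes cannot be told apart at this site.

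**Figure D3:**
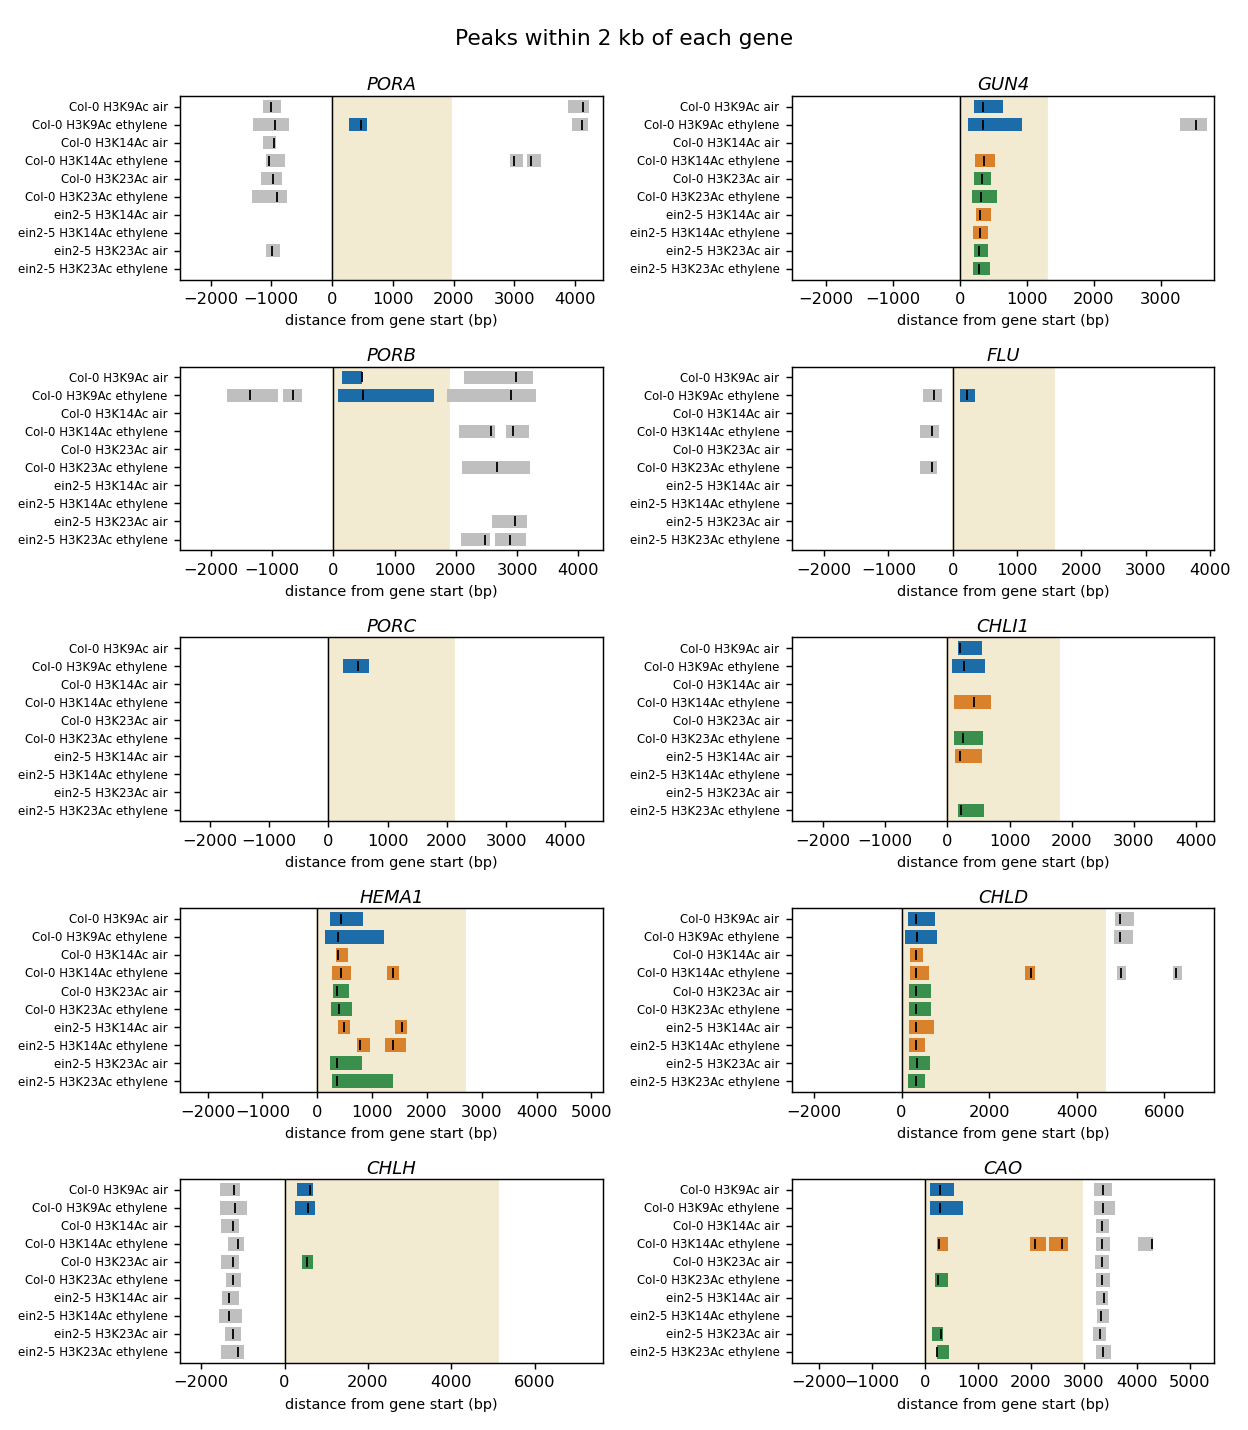
Position of every peak within 2 kb of each gene, as distance from the gene start in bp (x axis) by list (rows). Shaded spans are the genes, bars are peaks (blue H3K9Ac, orange H3K14Ac and green H3K23Ac where the summit lies inside the gene, grey where it lies in a neighbour) and ticks are summits. Most coloured bars begin just inside the start of the gene, and those of *CHLD* line up across all 10 lists.

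The POR genes had listed summits for H3K9Ac and none for the other marks. Over *PORA*, *PORB* and *PORC*, H3K9Ac had a summit inside in 4 of 6 combinations of gene and list (46.2% of all genes, as a mean over the lists). H3K14Ac and H3K23Ac had one in 0 of 12 each (27.8% and 32.2%). At the common depth *PORB* kept a summit in 2 lists, of which the air list was not filtered, and *PORA* and *PORC* in 0. *PORA* encodes the isoform that accumulates in etiolated tissue and declines in light, and its single H3K9Ac peak, with ethylene, stood at percentile 5.08 (fold enrichment 1.73) and covered 15.3% of the gene. At the common depth that peak was lost. *PORA* had a peak within 2 kb in 7 lists, but the 11 other peaks had their summits inside the upstream neighbour AT5G54200, 914 to 1040 bp before the start of *PORA* (7 lists), or inside AT5G54180 beyond its end (4 peaks in 3 lists).

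*PORB* encodes the isoform present both in the dark and in light. Its H3K9Ac peak had its summit in exon 2 in both treatments, at 472 bp in air and 479 bp with ethylene. In air the peak stood at percentile 5.44 (fold enrichment 1.84, −log10 P 2.27), had a q above 0.05 and covered 17.3% of the gene. With ethylene it stood at percentile 60.0 (2.73, −log10 P 14.3) and covered 84.4% of the gene. Since the ethylene control was deeper, the change in covered length cannot be told apart from the change in what could be called, and the ethylene peak was kept at the common depth. All 10 other peaks near *PORB* had summits inside AT4G27450 (8 peaks in 6 lists) or AT4G27435 (2 peaks).

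*PORC*, the isoform of light-grown plants, had a single peak in the whole data, for H3K9Ac with ethylene at chr1:907765-908213, with its summit in intron 2 at 502 bp. It stood at percentile 18.4 (fold enrichment 1.99), and the common depth removed it. No peak of a neighbour lay within 2 kb of *PORC*. Since only H3K9Ac with ethylene reached *PORA*, *PORC* and *FLU*, and none of these 3 peaks was kept, the count of 10 genes in that list fell to 7 at the common depth.

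*CAO* encodes chlorophyllide a oxygenase, which makes chlorophyll b, and had a summit inside in 6 lists. Near the start, 241 to 302 bp into the gene in intron 1, H3K9Ac stood at percentile 90.6 in air (fold enrichment 3.55) and 81.2 with ethylene (3.10). H3K14Ac in Col-0 with ethylene stood at 10.4 (1.59), and Col-0 H3K23Ac with ethylene at 42.4 (1.82). In *ein2-5*, H3K23Ac stood at 43.1 in air (1.71) and 23.1 with ethylene (1.75). *CAO* was thus near the top of the air H3K9Ac list and in the lower parts of the lists of the other marks, and 3 of its 6 lists were kept at the common depth, the pair for H3K9Ac and *ein2-5* H3K23Ac with ethylene. Ethylene-treated Col-0 had 2 further H3K14Ac peaks in exons 8 and 9, at 2074 and 2586 bp. A peak in the downstream neighbour AT1G44414 was present in all 10 lists.

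What the marked genes shared was position. Of the 55 peaks with the summit inside, 48 had it within 650 bp of the gene start, at 205 to 617 bp, a limit set after the values were seen. The median distance was 346 bp, and over all protein-coding genes it was 397 bp for 101235 summits, with 74.3% within 650 bp. Of the 7 more distant peaks, 4 were in *HEMA1*, 2 in *CAO* and 1 in *CHLD*, and all 7 were of H3K14Ac. Summits within that limit were thus 17 of 17 for H3K9Ac, 13 of 20 for H3K14Ac and 18 of 18 for H3K23Ac, beside 81.8%, 67.7% and 74.9% of the summits of these marks over all genes. The start side of the gene body was therefore the usual place of the peaks here as elsewhere, also at the POR genes, whose 4 summits lay 472 to 502 bp into the gene. Of the 55 peaks, 45 had a q under 0.05 and 34 were kept at the common depth, among them the peaks of the Col-0 air lists, which were not filtered.

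The upstream stretches of *PORA* and *PORB* resemble each other in part, and their longest identical run is 13 bp long and begins 162 bp before *PORA* and 123 bp before *PORB*.
Shared run: aaatctaattctc
 In the 250 bases before and 50 bases from the start of each gene, 3 motifs were searched on both strands. The G-box CACGTG, a palindrome bound by light-signalling factors, was found in 1 of the 10 genes in 7.68% of 27443 promoters and in 7 of 29 other tetrapyrrole genes. It was *CAO*, with matches 52 and 32 bp before the start. The short core ATGTA (on the other strand, TACAT), part of the element that EIN3 binds, was found in 6 of 10 genes, 56.4% of promoters and 16 of 29 other tetrapyrrole genes. Its matches were in *PORA*, *PORB*, *CHLH*, *GUN4*, *CHLD* and *CAO*, and the 2 in *GUN4* overlap each other. The I-box core GATAAG (on the other strand, CTTATC), found in promoters of light-regulated genes, was in 4 of 10 genes (*PORA*, *GUN4*, *CHLI1* and *CAO*), 14.6% of promoters and 4 of 29 other genes. Only its *PORA* match lies before the gene start. Those of *GUN4*, *CHLI1* and *CAO* lie inside the gene and begin at positions 33, 6 and 18 from the start. The *PORB* match to ATGTA also lies inside the gene, at positions 13 to 17. Matches to these short letters are a description and not binding sites, and genes with many and with few lists are both among them.

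Ethylene was set beside air within each genotype and mark, to see which of the 10 genes were listed in 1 treatment alone. For Col-0 H3K9Ac, *PORA*, *PORC* and *FLU* had a summit inside only with ethylene (3 genes, 20.1% of all genes) and 0 genes only in air (0.142%). For Col-0 H3K14Ac, *GUN4*, *CHLI1* and *CAO* were listed only with ethylene (3 genes, 33.7%) and 0 only in air (0.455%). For Col-0 H3K23Ac, *CHLI1* and *CAO* were listed only with ethylene (2 genes, 23.8%) and *CHLH* only in air (1 gene, 1.59%). The genes gained with ethylene were thus no larger a share of the 10 than of all genes for H3K14Ac and H3K23Ac, and all 3 Col-0 pairs set a deeper ethylene control against a shallower air control.

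In *ein2-5* the air control was the deeper one. For H3K14Ac, 0 of the 10 genes were listed only with ethylene (8.03%) and *CHLI1* only in air (10.6%). For H3K23Ac, *CHLI1* was listed only with ethylene (7.89%) and 0 genes only in air (9.69%). At the common control depth the counts with a summit inside were 7 for Col-0 H3K9Ac ethylene (48.6% of all genes), 3 for Col-0 H3K14Ac ethylene (24.0%), 3 for Col-0 H3K23Ac ethylene (20.3%), 1 for *ein2-5* H3K14Ac air (7.99%), 2 for H3K14Ac ethylene (22.4%), 1 for H3K23Ac air (11.6%) and 4 for H3K23Ac ethylene (30.4%).

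At that depth *CHLI1* was the gene that stayed listed with ethylene alone in both Col-0 marks, H3K14Ac (15.8% of all genes) and H3K23Ac (9.28%). No gene remained so for H3K9Ac (13.8%), while *CHLH* and *GUN4* were listed for H3K23Ac in air alone (6.03%). In Col-0 only the ethylene lists could lose peaks at this depth, so genes listed in air alone could only be added. In *ein2-5*, *HEMA1* was listed with ethylene alone for H3K14Ac (16.5%), and *GUN4*, *CHLI1* and *CAO* for H3K23Ac (21%). H3K23Ac at *CHLI1* was therefore listed with ethylene alone in both genotypes, as called and at the common depth. In *ein2-5* the air lists were scaled down further, from 13683768 control tags, than the ethylene lists, from 4333059. As called, *HEMA1*, *GUN4* and *CAO* were listed in both treatments there. The kept *HEMA1* summit was the one in exon 3, at 1381 bp.

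The *ein2-5* mutant was set beside Col-0 within each mark and treatment, which asks where EIN2 makes a difference to the listing. In air, *GUN4* and *CHLI1* had an H3K14Ac summit only in *ein2-5* (20.8% of all genes) and 0 genes only in Col-0 (1.74%). With ethylene, *CHLI1* and *CAO* had one only in Col-0 (20%) and 0 genes only in *ein2-5* (3.23%). For H3K23Ac in air, *CAO* was listed only in *ein2-5* (22.5%) and *CHLH* only in Col-0 (2.29%). With ethylene the same 5 genes, *HEMA1*, *GUN4*, *CHLI1*, *CHLD* and *CAO*, were listed in both genotypes, and 0 only in *ein2-5* (7.16%) or only in Col-0 (11.1%). *CHLI1* H3K14Ac was thus listed in the mutant and not in the wild type in air, and the reverse with ethylene. Its *ein2-5* air peak (fold enrichment 2.1) was called against the deepest control and was not kept at the common depth.

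At the common depth the air differences in favour of *ein2-5* were gone (0 genes, beside 3.9% of all genes for H3K14Ac and 4.36% for H3K23Ac). The Col-0 air lists stayed as called, and only the *ein2-5* air lists could lose peaks. In air this setting could therefore only remove differences in favour of *ein2-5* and add ones in favour of Col-0. *HEMA1* was then listed for H3K14Ac in air only in Col-0 (6.52% of all genes), and *HEMA1*, *CHLH* and *GUN4* for H3K23Ac in air only in Col-0 (9.8%). With ethylene, *CHLI1* was listed for H3K14Ac only in Col-0 (9.74%), and for H3K23Ac *GUN4* and *CAO* only in *ein2-5* (15.5%) and *HEMA1* only in Col-0 (5.43%). Of the genotype differences as called, that of *CHLI1* H3K14Ac with ethylene was found in the same direction at the common depth. That of *CHLH* H3K23Ac in air was found too, but it could not be lost, since the Col-0 air list was not filtered. The other 4 were not found. *EIN2* itself had a summit in 5 lists, among them 3 of *ein2-5*, and a peak at the gene does not check the mutation.

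The wider pathway was counted over 29 other tetrapyrrole genes, from ALA synthesis to heme, bilins and chlorophyll breakdown. With the summit inside, they were listed at 19 genes for H3K9Ac in air and 27 with ethylene, 5 and 21 for Col-0 H3K14Ac, 8 and 20 for Col-0 H3K23Ac, 13 and 13 for *ein2-5* H3K14Ac and 17 and 14 for *ein2-5* H3K23Ac. H3K9Ac with ethylene reached the most genes and Col-0 H3K14Ac in air the fewest, among the 10 genes, the 29 others and all protein-coding genes. Within 2 kb, all 29 had a peak in the H3K9Ac ethylene list. Besides *HEMA1* and *CHLD*, a summit in all 10 lists was found at *HEMF1* (coproporphyrinogen oxidase), *CHLM* (the methyltransferase that follows magnesium chelatase) and *GBP* (a protein that binds glutamyl-tRNA reductase), together 3 of 29, beside 6.24% of all genes. A summit in no list was found at *HEMA3* and *HEMB2*, named after their values were seen, at 0 of the 10 genes and at 35.9% of all genes.

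A listed H3K9Ac summit without one of H3K14Ac or H3K23Ac in any of the 8 lists of those marks was the record of *PORA*, *PORB*, *PORC* and *FLU*, 4 of 10 genes. It was also that of *HEMF2*, *CHLG* (chlorophyll synthase) and *HY2* (phytochromobilin synthase), 3 of 29, and of 6.48% of all genes. With the stricter record of H3K9Ac with ethylene and no other list, *PORA*, *PORC* and *FLU* stood beside *CHLG*, *HY2* and 4.33% of all genes. At the common depth these genes kept a summit in 0 lists, while *PORB* and *HEMF2* kept theirs in 2 lists each, H3K9Ac in air (not filtered) and with ethylene. The share of all genes with these records at that depth is not given. Likeness was taken as the same presence or absence of a summit in each of the 10 lists. *GUN4* shared its record with *HEMA2*, *HEMG1* and *HY1* and 611 genes in all, *CAO* with *HEMB1* and *HEME2* and 332 genes, and *PORB* with *HEMF2* and 584 genes. The records of *CHLH* and *CHLI1* were shared by no other tetrapyrrole gene, and were found at 27 and 17 genes in all.

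**Figure D4:**
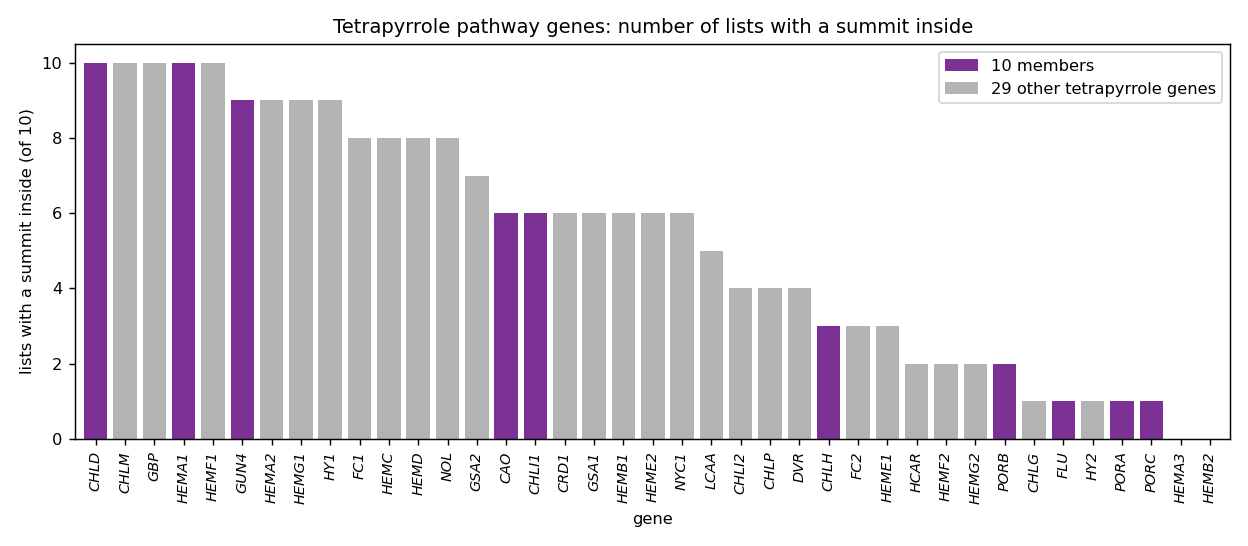
Number of lists (of 10) with a summit inside each gene, for the 10 chlorophyll synthesis genes (purple) and 29 other tetrapyrrole genes (grey), in descending order. The 10 genes run from 10 lists (*CHLD*, *HEMA1*) to 1 list (*PORA*, *PORC*, *FLU*), and the other genes from 10 to 0.

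By role, a summit inside was found in 11 of 20 combinations of gene and list for ALA synthesis and its control, 28 of 40 for magnesium chelatase and *GUN4*, 4 of 30 for the POR genes and 6 of 10 for *CAO*, beside a mean of 33.2% of all genes over the 10 lists. For H3K14Ac alone the counts were 4 of 8, 9 of 16, 0 of 12 and 1 of 4 (27.8% of all genes over the 4 lists), and for H3K23Ac alone 4 of 8, 11 of 16, 0 of 12 and 3 of 4 (32.2%). *HEMA1*, the chelatase genes, *GUN4* and *CAO* thus held all listed H3K14Ac and H3K23Ac summits found in the 10 genes. The *GUN4* summits, in 9 lists, also lie inside AT3G59410 and cannot be assigned to either gene. The totals count 1 gene again in each list, and genes of a role differed. *HEMA1* had 10 lists and *FLU* 1, and *CHLD* had 10 and *CHLH* 3.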

How the data were processed

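The authors mapped single-end 51-bp reads to TAIR10 (Bowtie2 2.1.0) and removed duplicates (SAMtools). Libraries of a condition were pooled, and MACS2 2.1.0.20150603 called the peaks (no fragment model, P threshold 0.01, fragments of 200 bp). Per the file headers, the deposited lists give a pileup (a coverage signal), a fold enrichment (a ratio), the −log10 P, and a q score (−log10 q). The headers state that q was not calculated although its column holds values, which were used as they stand. The lists hold 105488 peaks, and 0 columns were left unassigned.

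Each peak was assigned to genes of the RefSeq annotation of TAIR10.1 by overlap of at least 1 bp with the gene or 2 kb on either side. As a check, −log10 P was recomputed from pileup and fold enrichment (Poisson), and the median deviation was 0.000843 or less. Percentiles are ranks of −log10 P in a list. The 10 genes and the lists of other genes were chosen with earlier results of these data known. All 10 genes were named, and of the 29 others those with a summit inside in all lists, with no peak within 2 kb in any list (0 genes) or with the record of a member. *HEMA3* and *HEMB2* are outside this rule and were named after their values were seen. Shares carry no interval, since genes are not replicates, and no P value was computed. Results were recomputed with q under 0.05, with fold enrichment 2 or more, with lists of equal length, with windows of 1 and 0 kb, with 50% of the peak in the window, with the summit in the gene, and at the common control depth. The overlap code was tested on simulated data. Scripts ran in Python 3.11.15 with scipy 1.17.1, pandas 2.3.3, matplotlib 3.10.9 and numpy 2.4.6. Read densities were not analysed here.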

Additional observations from a re-analysis of the deposited data

Results flagged for a closer look

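The H3K14Ac summit inside *CHLI1* was listed in opposite treatments in the 2 genotypes. In Col-0 it was listed with ethylene, at a fold enrichment of 2.37, and not in air, and in *ein2-5* it was listed in air, at 2.1, and not with ethylene. The difference was not tested, since each condition is 1 list. Each Col-0 H3K14Ac list rests on 1 library, and each *ein2-5* list on 2 pooled libraries. The lists in which it was present were those with the deeper control of each genotype, 10479732 and 13683768 tags, and at the common control depth the *ein2-5* air peak was not kept. The part of control depth in the result was not tested beyond this.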

How the results depend on the processing

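No paired analysis was possible because replicate libraries were pooled before peak calling and the lists carry no replicate numbers, and for the same reason no replicate was left out. Shares of all genes are given below for the common depth and further above for the summit rule. For the other settings they are not given, and whether a move was particular to the 10 genes was not tested. Genes with a peak within 2 kb became 2 for Col-0 H3K14Ac air with q under 0.05. With a fold enrichment of at least 2 they became 2, 2 and 4 for *ein2-5* H3K14Ac air, H3K23Ac air and H3K23Ac ethylene. In lists of equal length they became 4 for Col-0 H3K14Ac ethylene and 2, 1, 3 and 2 for the 4 *ein2-5* lists. At the common depth they became 1 for both *ein2-5* air lists (16.3% of all genes for H3K14Ac and 23.1% for H3K23Ac). Smaller moves at that depth were from 9 to 6 for both Col-0 H3K14Ac (43.0%) and Col-0 H3K23Ac ethylene (37.4%). For H3K9Ac ethylene the move was from 10 to 9 (71.3%). The *ein2-5* ethylene lists moved from 5 to 4 for H3K14Ac (40.6%) and from 7 to 6 for H3K23Ac (52.0%). With a window of 0 kb, or with the summit in the gene, they became 2 and 5 for Col-0 H3K14Ac air and ethylene, 5 for Col-0 H3K23Ac ethylene, 3 for *ein2-5* H3K14Ac ethylene and 4 for H3K23Ac air.

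Genes with a summit inside became 1 for Col-0 H3K14Ac air and 2 for H3K23Ac air with q under 0.05. With a fold enrichment of at least 2 they became 6 for H3K9Ac ethylene, 3 for Col-0 H3K14Ac and H3K23Ac ethylene, and 2 for *ein2-5* H3K14Ac air and both H3K23Ac lists. In lists of equal length they became 6 for H3K9Ac ethylene, 2 for Col-0 H3K14Ac ethylene, 3 for Col-0 H3K23Ac ethylene and 2, 1, 2 and 1 in *ein2-5*. At the common depth they became 3, 3, 1 and 1 for Col-0 H3K14Ac and H3K23Ac ethylene and *ein2-5* H3K14Ac and H3K23Ac air. The shares of all genes there were 24.0%, 20.3%, 7.99% and 11.6%.

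Genes with a peak within 2 kb in only 1 of 2 lists numbered 2, 4 and 3 for ethylene and air in Col-0 H3K9Ac, H3K14Ac and H3K23Ac. Of all genes, 19.4%, 46.9% and 32.8% were listed there with ethylene alone, and 0.0583%, 0.455% and 1.71% in air alone. In *ein2-5* H3K14Ac and H3K23Ac the numbers were 1 and 2 (9.99% and 8.5% with ethylene alone, 14.4% and 11.6% in air alone). Between genotypes they were 3, 4, 1 and 2 for H3K14Ac air, H3K14Ac ethylene, H3K23Ac air and H3K23Ac ethylene. Of all genes, 32.6%, 3.17%, 31.9% and 7.54% were listed there in *ein2-5* alone, and 2.27%, 23.7%, 2.5% and 12.3% in Col-0 alone. With q under 0.05 the counts among the 10 genes became 7 (Col-0 H3K14Ac), 3 and 4 (*ein2-5*) and 3 (H3K23Ac air). With a fold of at least 2 they became 1 (H3K9Ac), 4 and 4 (*ein2-5*) and 5, 2, 4 and 4 between genotypes. In lists of equal length they became 0 (H3K9Ac), 1 (Col-0 H3K14Ac), and 5, 5 and 4 (H3K14Ac air and both H3K23Ac pairs). At the common depth they became 1 (H3K9Ac), 3 and 5 (*ein2-5*) and 2, 5 and 4 (all but H3K14Ac air). For these pairs of ethylene and air, 14.3%, 27.3% and 31.9% of all genes were listed with ethylene alone. In air alone the shares were 0.98%, 3.05% and 2.91%. For these pairs of genotypes, 10.7%, 7.34% and 21.1% were listed in *ein2-5* alone, and 13.1%, 15.7% and 6.43% in Col-0 alone. A window of 1 kb gave 2 for H3K23Ac air, and a window of 0 kb or the summit rule gave 1 (*ein2-5* H3K23Ac) and 2, 2 and 0 (all but H3K14Ac air). With 50% of the peak in the window, no count moved by over 1.5 times.

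The strongest peak of a gene in a list, 72 in all, was lost in 20 cases at the common depth, 27 in lists of equal length, 20 with the fold limit and 9 with the q limit. The cause of these moves was not tested, other than that each setting keeps fewer peaks. Control depth limits what was listed, so an unlisted peak is not an absent mark.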
